A study of Mus musculus with 6 samples.

Results

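The genes described here encode the aggrecan–hyaluronan aggregate of cartilage and the enzymes and receptor that turn hyaluronan over. They are 10 named genes, chosen by function, of 33971 in the deposited table: the proteoglycans Acan and Vcan, the link proteins Hapln1 and Hapln3, the hyaluronan synthases Has1, Has2 and Has3, the hyaluronidases Hyal1 and Hyal2, and the receptor Cd44. RNA sequencing was performed on articular cartilage of wild-type (WT) mice, with 3 libraries from animals aged 2 months and 3 from animals aged 18 months, to ask how expression in this tissue differed with age. The labels give no engineered allele and no treatment for either group. The labels do not say whether each library came from a separate animal or from pooled tissue, so the p-values measure the spread between these libraries, which may be technical. They give neither the sex nor the strain of the mice.

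Aggrecan is a large proteoglycan whose sulfated chains draw water into cartilage and let it resist compression. Many aggrecan molecules attach along one hyaluronan chain, and a link protein holds each of them in place. Hyaluronan itself is extruded through the plasma membrane by the synthases, is cut by hyaluronidases and other enzymes, and is bound by CD44, which tethers the pericellular coat of chondrocytes and is also abundant on leukocytes.

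Within the genome some of these genes are neighbours, and the sequences ahead of their starts differ in composition. By the coordinates in the deposited table, which for 9 of the 10 genes equal those of the GENCODE M21 annotation of GRCm38, Acan (chromosome 7, 79053483 to 79115099, plus strand) and Hapln3 (chromosome 7, 79115102 to 79131018, minus strand) end tail to tail with 2 bases between them. Hapln1 (chromosome 13, 89539796 to 89611652, plus strand) and Vcan (chromosome 13, 89655312 to 89742509, minus strand) also face each other, 43659 bases apart with 0 genes between. Hyal2 (chromosome 9, 107567945 to 107572779, plus strand) lies 4147 bases ahead of Hyal1 (chromosome 9, 107576927 to 107581710, plus strand). Cd44 (chromosome 2, 102811141 to 102901665, minus strand), Has1 (chromosome 17, 17843323 to 17855205, minus strand), Has2 (chromosome 15, 56665627 to 56694539, minus strand) and Has3 (chromosome 8, 106870242 to 106882902, plus strand) stand apart from the others.

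RefSeq sequences around the gene start (GRCm38.p6) were matched for 8 of the 10 genes, all but Has2 and Has3. The 250 bases upstream of the RefSeq start are shown for 4 of them, because the transcripts of the neighbours Acan and Hapln3 fell together with age, that of the related proteoglycan Vcan did not pass the test, and that of Cd44 rose. All are 5′ to 3′ on the strand of the gene and hold no annotated exon. They are chr7:79052976-79053225 (plus) for Acan, chr7:79131019-79131268 (minus) for Hapln3, chr13:89742513-89742762 (minus) for Vcan and chr2:102901666-102901915 (minus) for Cd44. Capitals mark the motifs searched, which were the SOX core in the forms ACAAT and ACAAAG and the GC box GGGCGG, each on both strands, and TATAAA on the strand of the gene only.
Acan: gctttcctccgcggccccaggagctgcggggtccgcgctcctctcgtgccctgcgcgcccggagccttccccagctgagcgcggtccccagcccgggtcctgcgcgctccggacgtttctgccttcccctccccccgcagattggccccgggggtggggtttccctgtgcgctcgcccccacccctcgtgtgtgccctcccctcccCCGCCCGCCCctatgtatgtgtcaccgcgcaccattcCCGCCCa
Hapln3: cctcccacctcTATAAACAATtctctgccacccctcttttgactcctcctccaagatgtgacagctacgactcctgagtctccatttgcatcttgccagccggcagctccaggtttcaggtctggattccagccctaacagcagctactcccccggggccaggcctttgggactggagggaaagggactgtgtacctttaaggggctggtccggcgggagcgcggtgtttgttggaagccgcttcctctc
Vcan: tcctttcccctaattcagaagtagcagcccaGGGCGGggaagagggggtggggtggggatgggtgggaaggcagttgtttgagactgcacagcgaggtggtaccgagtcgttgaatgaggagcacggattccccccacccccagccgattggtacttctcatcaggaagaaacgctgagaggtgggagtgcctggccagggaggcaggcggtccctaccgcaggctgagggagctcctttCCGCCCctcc
Cd44: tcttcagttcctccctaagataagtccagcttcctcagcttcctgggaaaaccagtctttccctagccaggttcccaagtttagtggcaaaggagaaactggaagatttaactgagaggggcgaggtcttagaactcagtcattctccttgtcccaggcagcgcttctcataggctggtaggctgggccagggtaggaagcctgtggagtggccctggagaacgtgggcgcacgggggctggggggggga

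The Acan window held 3 GC boxes, at 44, 40 and 7 bases before the start, of which the first 2 overlap. Its GC content was 74.4% with 26 CG pairs, against a median of 52.4% and 6 CG pairs over the 32851 RefSeq windows of the same length. The Vcan window held 2 GC boxes, 219 and 10 bases before the start, at a GC content of 62.4%. In the Hapln3 window 1 TATAAA and 1 ACAAT overlap, 239 and 234 bases before the start, and the Cd44 window held none of the motifs. Over all windows GGGCGG was present in 32.7%, ACAAT in 27.7%, ACAAAG in 16.5% and TATAAA in 7.59%. A match is a run of letters and not a measured binding site.

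The libraries held 48171507 to 51683577 counts at 2 months and 55201357 to 59085179 at 18 months, and 2 of them stood apart from their group. Checked against markers that leave out Acan and Hapln1, the cartilage label held at 2 months, where 14 chondrocyte genes made up 4.76% to 6.59% of counts. At 18 months the same genes made up 0.112% to 0.348%, all 14 were called lower, and Epyc had 0 counts in every library. Neutrophil markers made up 0.00175% to 0.573% of counts at 2 months and 4.4% to 4.7% at 18 months, and 13 of the 14 did not overlap between the ages. Of all genes tested, 35.6% were higher without overlap. By edgeR 0 of them were called (2 at an unadjusted p below 0.05), by DESeq2 12 were, and by edgeR without 2-month replicate 2 13 were. Erythroid markers made up 0.0248% to 0.679% and then 2.8% to 3.67%, with 3 of 10 called higher by edgeR, 9 by DESeq2 and 10 by edgeR without 2-month replicate 2. Over all genes, edgeR called 4354 of 20397 lower and 3047 higher. DESeq2 called 4397 higher among 33971 genes fitted. Some of these, Has1 among them, got no adjusted p-value, so this share cannot be set beside that of edgeR. Without 2-month replicate 2, edgeR called 5007 of 21489 higher, so the gain without that library was in part table-wide. The 2-month replicate 2 had the highest leukocyte and erythroid shares of its age. The 18-month replicate 1 had the highest chondrocyte share of its age and 0.698% of counts from fibroblast markers of synovium and tendon, against 0.149% and 0.147% in replicates 2 and 3. Counts of Xist, the RNA of the inactive X chromosome, were 88239 to 102417 at 2 months and 11 to 30 at 18 months, although the study's methods name male mice for its age-related model, so that sex and age cannot be told apart in these libraries. In bulk tissue fewer cells of a type and less RNA per cell cannot be told apart either, and the part of cell makeup in the results that follow was not tested.

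Of the 10 genes 7 fell and 1 rose with age, and Vcan and Has1 did not pass the test. Calls required an edgeR quasi-likelihood p-value, Benjamini-Hochberg adjusted across all 20397 genes tested, below 0.05 and a log2 fold change (18 months against 2 months) above 1 or below −1. All 10 genes passed the filter on low counts. Of all genes tested, 36.3% were called, 21.3% lower and 14.9% higher. The median log2 fold change was −1.68 over the 10 genes and −0.02 over all genes tested. The FPKM of the ages did not overlap for the same 7 genes, all lower, and for Cd44, which was higher. Over all genes tested this was so for 32.8% in the lower direction and 35.6% in the higher.

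**Figure D1:**
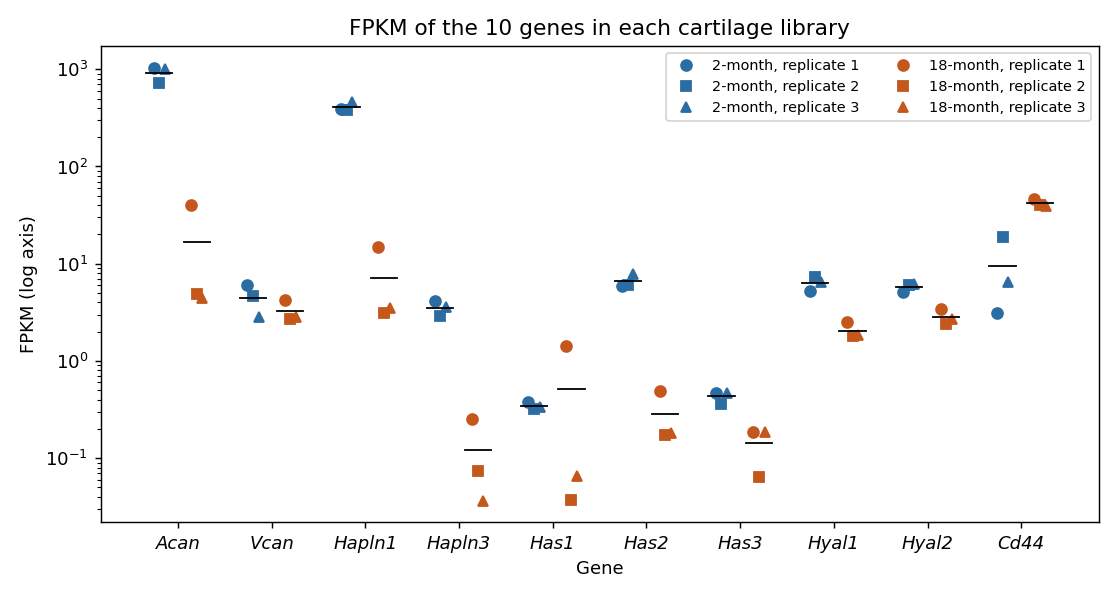
FPKM (fragments scaled to transcript length and library size, log axis) of each gene in the 3 libraries of each age, and black lines are group means. Acan and Hapln1 stood at 381 to 1040 in all 2-month libraries and at 3.09 to 40.5 at 18 months, Cd44 ran the other way, and the circle of 18-month replicate 1 is far above the other 18-month points for Acan, Hapln1 and Has1.

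Acan, the aggrecan core protein (ENSMUSG00000030607), fell from the most abundant of these transcripts to a low level. In 2-month replicates 1, 2 and 3, the order used for every gene here, its counts were 425478, 318237 and 423199, or 1040, 728 and 1010 FPKM, which scales counts to transcript length and library size. In the 18-month replicates its counts were 20333, 2307 and 2117, or 40.5, 4.91 and 4.44 FPKM. No 18-month library came near a 2-month one, yet replicate 1 held 9.11 times the level of the lowest 18-month library. The mean fell from 925 ± 171 to 16.6 ± 20.7 FPKM (SD, n = 3 each), and the log2 fold change was −5.91 (standard error 1.13, edgeR quasi-likelihood, Benjamini-Hochberg adjusted p = 0.008). Without 18-month replicate 1 it was −7.69. Beside this, the chondrocyte markers made up 4.76%, 6.59% and 5.74% of counts at 2 months and 0.348%, 0.112% and 0.112% at 18 months. The library with the most Acan among the older ones also had the most of these markers. Among the younger ones the order was reversed, and replicate 2, with the most of these markers, had the least Acan.

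Vcan, which encodes versican (ENSMUSG00000021614), a hyaluronan-binding proteoglycan of many loose connective tissues, had levels that overlapped between the ages. Its levels were 6.03, 4.61 and 2.82 FPKM at 2 months and 4.26, 2.67 and 2.85 FPKM at 18 months. The spread within the 2-month libraries was wider than the difference between the means, 4.49 ± 1.6 and 3.26 ± 0.868 FPKM (SD, n = 3 each). The log2 fold change of −0.54 (standard error 0.32) did not pass the test (edgeR quasi-likelihood, Benjamini-Hochberg adjusted p = 0.19). Of the summed FPKM of both proteoglycans, Vcan made up 0.578%, 0.629% and 0.279% at 2 months and 9.51%, 35.2% and 39.1% at 18 months. Gm4117 overlaps Vcan on the other strand by 3050 bases, and whether the counting used strand is not given in the sources used here.

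Hapln1, the link protein of cartilage (ENSMUSG00000021613), fell as well. Its counts were 127128, 131665 and 152266 at 2 months, or 392, 381 and 460 FPKM, and 5889, 1148 and 1305 at 18 months, or 14.8, 3.09 and 3.47 FPKM. As with Acan, 18-month replicate 1 kept the most, and the ages were far apart. Its log2 fold change was −5.95 (standard error 0.79, edgeR quasi-likelihood, Benjamini-Hochberg adjusted p = 0.0028), and −7.03 without 18-month replicate 1. Gm8546, which lies within Hapln1 on the other strand, had at most 40 counts in a library.

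Hapln3 (ENSMUSG00000030606), a link protein of wider tissue distribution, was much rarer than Hapln1 at both ages. Its counts were 798, 593 and 703 at 2 months and 61, 17 and 9 at 18 months, which correspond to 4.13, 2.88 and 3.56 FPKM and to 0.255, 0.073 and 0.0366 FPKM. Every 18-month library was below every 2-month one. The log2 fold change was −4.91 (standard error 0.75, edgeR quasi-likelihood, Benjamini-Hochberg adjusted p = 0.0041), and −5.96 without 18-month replicate 1. Of the FPKM of both link proteins Hapln3 made up 0.75% to 1.04% at 2 months and 1.04% to 2.31% at 18 months. Hapln3 ends 2 bases from the end of the far more abundant Acan. Without known use of strand, reads past the end of Acan could be counted to Hapln3, which was not tested.

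Among the synthases, Has2 (ENSMUSG00000022367), the main synthase of chondrocytes, fell in all 18-month libraries. It had 5.96, 5.97 and 7.79 FPKM at 2 months (1388, 1480 and 1854 counts) and 0.495, 0.174 and 0.181 FPKM at 18 months (141, 47 and 49 counts). The 2-month libraries lay close together and none overlapped the older ones. The log2 fold change was −4.62 (standard error 0.5, edgeR quasi-likelihood, Benjamini-Hochberg adjusted p = 0.0018), and −5.26 without 18-month replicate 1. Has2os, which lies antisense over 4596 bases of Has2, was also called lower (545, 389 and 549 counts against 53, 6 and 8). Without known use of strand the reads of both cannot be told apart.

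Has3 (ENSMUSG00000031910), the synthase isoform known for shorter hyaluronan chains in cell culture, was rare throughout. It had 166, 136 and 166 counts at 2 months, or 0.471, 0.362 and 0.463 FPKM, and 80, 26 and 75 counts at 18 months, or 0.185, 0.0643 and 0.184 FPKM. Here 18-month replicate 2 and not replicate 1 stood alone. Its log2 fold change was −1.67 (standard error 0.47, edgeR quasi-likelihood, Benjamini-Hochberg adjusted p = 0.03). The call did not hold without 2-month replicate 1, 2-month replicate 3, 18-month replicate 1 or 18-month replicate 3 (adjusted p = 0.073, 0.086, 0.056 and 0.06).

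For Has1 (ENSMUSG00000003665), the synthase with the lowest mean at 2 months, 1 library set the direction. Its counts were 95, 86 and 85 at 2 months, or 0.378, 0.321 and 0.332 FPKM, and 434, 11 and 20 at 18 months, or 1.43, 0.0373 and 0.066 FPKM. Of the 18-month libraries, replicate 1 was above every 2-month library and replicates 2 and 3 were below every one. With all libraries the log2 fold change was 0.45 (standard error 1.3) and did not pass the test (edgeR quasi-likelihood, Benjamini-Hochberg adjusted p = 0.79). Without 18-month replicate 1 it turned to −2.73 and passed (adjusted p = 0.012). Synovial and tendon fibroblast markers made up 2.98%, 1.27% and 3.25% of counts at 2 months and 0.698%, 0.149% and 0.147% at 18 months. The library with the most Has1 thus had the highest share among the older libraries, but a lower one than every younger library, where Has1 was lower. The members of that marker list went both ways, with 5 of 10 called lower at 18 months and 2 higher, against 21.3% and 14.9% of all genes tested.

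The makeup of the synthase transcripts differed from library to library at 18 months. Has2 made up 87.5%, 89.7% and 90.7% of the summed FPKM of the 3 synthases at 2 months, and 23.5%, 63.1% and 42% at 18 months. Has1 held 67.7% in 18-month replicate 1, against 13.6% and 15.3% in replicates 2 and 3. Has3 held 8.8%, 23.4% and 42.7%, so that no order of the isoforms was shared by the 3 older libraries, whereas Has2 led in every younger one.

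**Figure D2:**
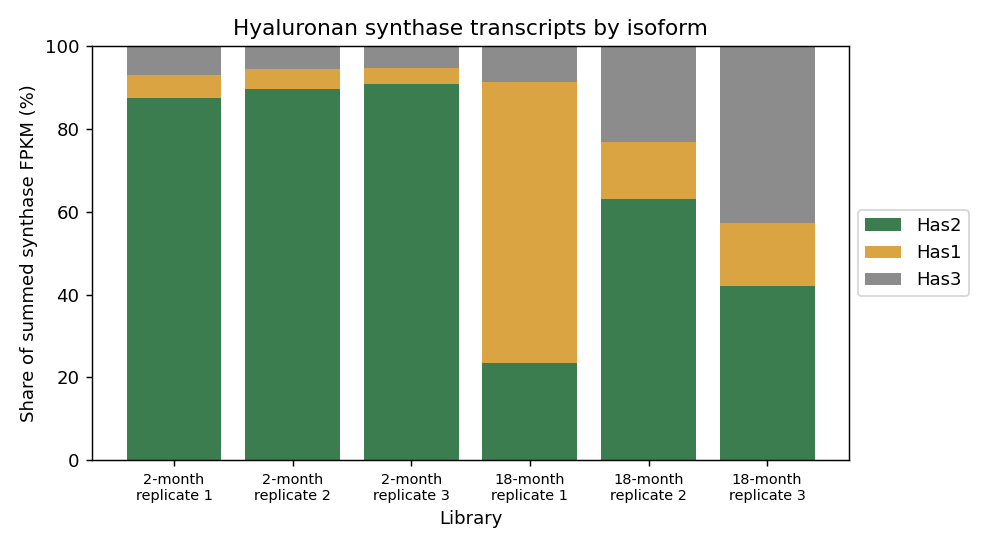
Share (%) of Has2, Has1 and Has3 in the summed FPKM of the 3 synthases, 1 bar per library. Has2 fills 87.5% to 90.7% of each 2-month bar and 23.5% to 63.1% of the 18-month bars, and Has1 is the largest part only in 18-month replicate 1.

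The excess of 18-month replicate 1 over its group was uneven among the 10 genes. Its level over the mean of the other 18-month libraries was 27.6-fold for Has1, 8.66-fold for Acan, 4.65-fold for Hapln3, 4.53-fold for Hapln1 and 2.79-fold for Has2. It was 1.54-fold for Vcan, 1.5-fold for Has3, 1.37-fold for Hyal1, 1.32-fold for Hyal2 and 1.16-fold for Cd44. The median over the 14018 genes whose FPKM averaged 1 or more was 1.07, and 5.35% of them were above 2-fold and 1.86% above 4-fold.

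Both hyaluronidases fell, by less than aggrecan or link protein. Hyal1 (ENSMUSG00000010051), a lysosomal enzyme, had 5.24, 7.31 and 6.43 FPKM at 2 months (1088, 1617 and 1366 counts) and 2.5, 1.82 and 1.83 FPKM at 18 months (637, 434 and 442 counts). Its log2 fold change was −1.7 (standard error 0.18, edgeR quasi-likelihood, Benjamini-Hochberg adjusted p = 0.0017). Naa80 and Hyal3 overlap Hyal1 on the same strand by 2824 and 893 bases and could share its reads, and neither passed the test (log2 fold changes −0.33 and 0.01).

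Hyal2 (ENSMUSG00000010047), a membrane-anchored enzyme that cuts long hyaluronan, had 5.13, 6.08 and 6.16 FPKM at 2 months (932, 1175 and 1142 counts) and 3.38, 2.41 and 2.73 FPKM at 18 months (751, 501 and 576 counts). No 18-month value of either hyaluronidase reached a 2-month one. The Hyal2 log2 fold change was −1.11 (standard error 0.17, edgeR quasi-likelihood, Benjamini-Hochberg adjusted p = 0.0039), just past the fold limit. It was not called by edgeR's test against a fold change of 2 (adjusted p = 0.28). Gm9917 overlaps Hyal2 by 471 bases on the other strand, with 131 to 595 counts at 2 months and 128 to 631 at 18 months.

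Cd44 (ENSMUSG00000005087), the hyaluronan receptor, was the gene of the 10 that rose. It had 3.13, 18.7 and 6.48 FPKM at 2 months (1165, 7398 and 2468 counts) and 46.2, 40.3 and 39.2 FPKM at 18 months (21039, 17195 and 16948 counts). The older libraries were close together, while among the younger ones replicate 2 stood 3.88-fold above the mean of the other 2. The log2 fold change was 2.12 (standard error 0.61, edgeR quasi-likelihood, Benjamini-Hochberg adjusted p = 0.032). The call did not hold without 2-month replicate 3 (adjusted p = 0.1) or without 18-month replicate 1, 2 or 3 (adjusted p = 0.078, 0.077 and 0.075). It held without 2-month replicate 2, at a log2 fold change of 3.02.

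Among the younger libraries Cd44 and leukocyte markers had the same order. The chondrocyte, erythroid, endothelial and osteoblast and osteocyte lists shared this order, while those of fibroblasts, adipocytes and skeletal muscle did not. Monocyte and macrophage markers made up 0.00276%, 0.131% and 0.0187% of counts at 2 months and 0.908%, 0.708% and 0.71% at 18 months, with none of the 12 genes at 0 in every library of an age. Of the 11 tested, all 11 were higher at 18 months without overlap, and 4 were called by edgeR, 8 by DESeq2 and 11 by edgeR without 2-month replicate 2. Of all genes tested, 35.6% were higher without overlap and 14.9% were called higher by edgeR. Ptprc, the pan-leukocyte antigen CD45, which was added after the other genes to be named were chosen, had 38, 5842 and 392 counts at 2 months and 35268, 25585 and 25029 at 18 months. Its log2 fold change of 3.62 did not pass the test (standard error 1.6, edgeR quasi-likelihood, Benjamini-Hochberg adjusted p = 0.1). Whether the Cd44 reads came from leukocytes, from chondrocytes or from other cells was not tested.

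**Figure D3:**
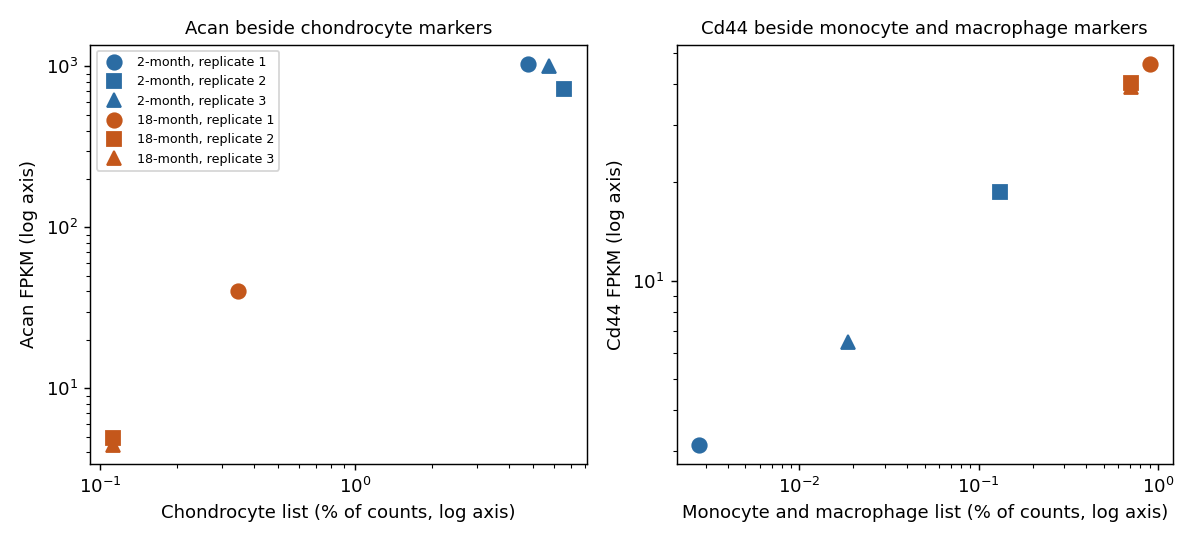
Left, Acan FPKM against the share of counts from 14 chondrocyte markers. Right, Cd44 FPKM against the share from 12 monocyte and macrophage markers, with log axes and 1 point per library in both panels. The 2-month and 18-month points are far apart on both axes at left, with 18-month replicate 1 between the groups, and at right 2-month replicate 2 (18.7 FPKM at 0.131%) lies between the other young libraries and the aged ones.

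Ratios within a library were compared by a two-sided exact permutation test on log2(FPKM + 0.1). Because of the 0.1 that was added, a ratio with a rare transcript depends on this pseudocount. With 20 splits of 3 against 3 the smallest p-value is 0.1, so none of the 6 ratios could pass, and adjusted values are over the 6. Acan relative to Col2a1, the main fibril collagen of cartilage, was −0.44, −2.21 and −0.87 at 2 months and 0.93, −1.36 and −1.51 at 18 months. These overlapped (difference 0.52, exact p = 0.7, adjusted 0.7), and the difference was −0.27 without 18-month replicate 1. Hapln1 relative to Acan was −1.4, −0.93 and −1.13 against −1.44, −0.65 and −0.35 (difference 0.34, exact p = 0.5, adjusted 0.6), less than the spread of the 18-month libraries.

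The other 4 ratios did not overlap between the ages, each at the smallest p-value (exact p = 0.1, adjusted 0.15). Vcan relative to Acan was higher at 18 months in every library, by 6.14 on the log2 scale, and by 6.96 without 18-month replicate 1. Cd44 relative to Has2, receptor against synthase, was −0.91, 1.63 and −0.26 at 2 months and 6.28, 7.21 and 7.13 at 18 months, a difference of 6.72. It was 4.9 with a pseudocount of 1, 7.18 with 0.01 and 7.46 without 2-month replicate 2. Hyal2 relative to Hyal1 went from −0.03, −0.26 and −0.06 to 0.42, 0.38 and 0.56, a difference of 0.57. For Hapln3 relative to Hapln1 the difference was 2.07, but it was 1.12 with a pseudocount of 0.01 and 3.95 with 1, since Hapln3 at 18 months lay near or below the pseudocount.

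Ordered by mean FPKM, Acan and Hapln1 (411 ± 42.4) led at 2 months, apart from each other and from the rest. Cd44 (9.42 ± 8.17), Has2 (6.57 ± 1.05), Hyal1 (6.32 ± 1.04), Hyal2 (5.79 ± 0.572), Vcan and Hapln3 (3.52 ± 0.626) followed, and each overlapped the next. Has3 (0.432 ± 0.0604) and Has1 (0.344 ± 0.0299) came last and overlapped. At 18 months Cd44 (41.9 ± 3.74) led, followed by Acan, Hapln1 (7.13 ± 6.68), Vcan, Hyal2 (2.84 ± 0.496) and Hyal1 (2.05 ± 0.391), then Has1 (0.51 ± 0.794), Has2 (0.283 ± 0.183), Has3 (0.144 ± 0.0694) and Hapln3 (0.121 ± 0.117). Each gene in that order overlapped the next, except Hyal1 and Has1, while within each 18-month library Cd44 was above Acan and Acan above Hapln1. All are means ± SD with n = 3.

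**Figure D4:**
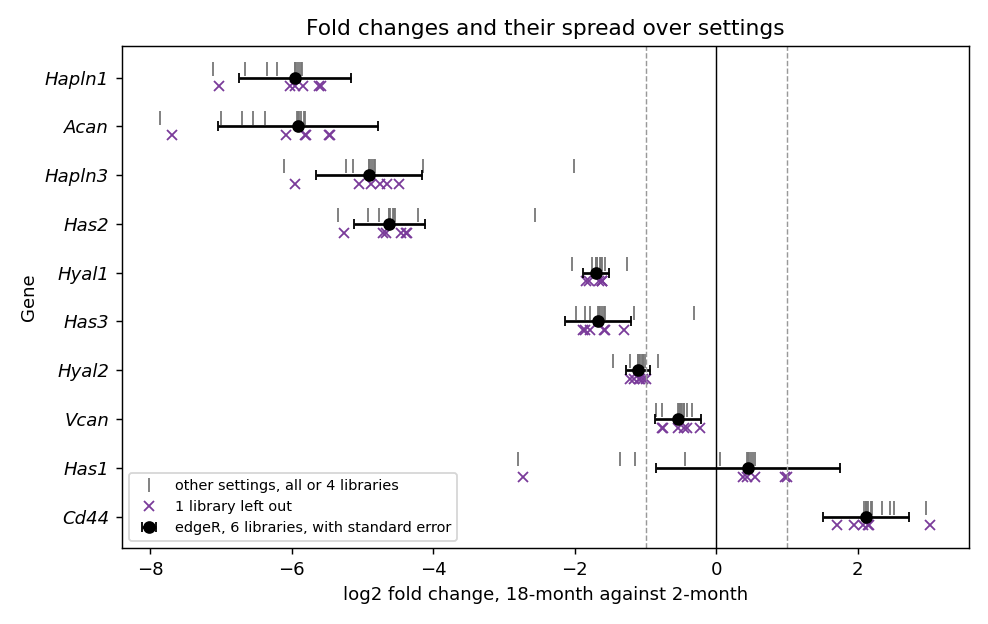
log2 fold change of each gene with its standard error (black), with 1 library left out (crosses) and under the other settings (ticks), where dashed lines mark the fold limits. Acan, Hapln1, Hapln3 and Has2 stay below −2 in all settings, Vcan lies between −0.85 and −0.23, and Has1 runs from −2.81 to 1.

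The profiles most like that of Acan included those of 2 genes of the chondrocyte marker list, Chad and Snorc. Among 14017 other genes whose FPKM averaged 1 or more, the smallest root-mean-square differences of centred log2(FPKM + 0.1) over the 6 libraries were those of Chad (0.24), Peg3 (0.34), Mia (0.36), Snorc (0.37) and Frzb (0.38). Chad, which encodes chondroadherin, had a mean of 3840 FPKM at 2 months and 53.3 at 18 months, and Frzb, a secreted Wnt antagonist, one of 633 and 6.52. The profiles nearest to Cd44 were those of Mcf2l (0.09), Sinhcaf (0.1), Ptpro (0.11), Rad54l (0.11) and Gm9888 (0.12), of which Rad54l, a recombinational repair gene, had 1.08 FPKM at 2 months and 5.52 at 18 months. These are likenesses of the centred pattern over 6 libraries only, and not of level.

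Around the 10 genes, 54 others of aggrecan and hyaluronan biology were listed, of which 48 were in the table and 42 tested. Of these 5 were called higher and 16 lower, or 50%, and the median log2 fold change was −0.78. Over all genes tested 36.3% were called, 14.9% higher and 21.3% lower, and the median was −0.02. The counts of each list below are to be read beside those shares. The hyaluronan-binding proteins (33.3% called) and the CD44 partners (42.9%) were near the share over all genes. The count over the 42 ran from 12 to 25 when 1 library was left out, while that over all genes ran from 5640 to 9583.

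The SOX factors that drive aggrecan and link protein transcription all fell (3 of 3, and 2 of 3 by DESeq2). Sox9, the master regulator of the chondrocyte, was 52.5, 40.6 and 53.1 FPKM at 2 months and 3.25, 0.588 and 0.565 at 18 months, with a log2 fold change of −5.16 (standard error 0.85, edgeR quasi-likelihood, Benjamini-Hochberg adjusted p = 0.0051). On the log2 scale Sox5 fell by 4.05, and Sox6 fell by 1.0, which is at the limit. Of the other hyalectans and link proteins, 2 of 4 were tested and Bcan, the brevican gene, fell by 2.62 on the log2 scale from a low level, 0.862 ± 0.173 FPKM (SD, n = 3).

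Enzymes that supply the UDP-sugars of hyaluronan were lower where they passed the test, with 5 of 7 called lower and 0 higher and a median of −1.62. Gfpt2, an isoform of the first enzyme of the hexosamine pathway, had the largest change. Its levels were 6.7, 8.12 and 10.2 FPKM at 2 months and 2.87, 0.526 and 0.442 at 18 months (log2 fold change −2.81, edgeR quasi-likelihood, Benjamini-Hochberg adjusted p = 0.029). Ugp2, which makes UDP-glucose and was the most abundant of the list, had a log2 fold change of −0.45 and was not called.

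The other hyaluronan-degrading enzymes were mixed, with 6 of 11 listed symbols tested, 1 called higher, 2 lower and a median of −0.02. Cemip, which takes part in the depolymerisation of hyaluronan, had 15.7, 25.8 and 17.8 FPKM at 2 months and 3.45, 0.568 and 0.582 at 18 months (log2 fold change −3.77, edgeR quasi-likelihood, Benjamini-Hochberg adjusted p = 0.013). The lysosomal exoglycosidase Hexa was by far the most abundant and did not pass the test, at 141 ± 46.5 and 142 ± 16.4 FPKM (SD, n = 3 each). Among aggrecan-cleaving proteases and their inhibitor, 1 of 6 tested was called and it was the inhibitor Timp3, which fell from 153 ± 63.3 to 32.1 ± 15.5 FPKM (log2 fold change −2.36, edgeR quasi-likelihood, Benjamini-Hochberg adjusted p = 0.011). Of the 5 proteases tested, 0 were called by edgeR or by DESeq2, 2 were at an unadjusted p below 0.05 in edgeR, both lower, and 1, Adamts4, was called higher without 2-month replicate 2. Adamts4 had 0.13, 2.22 and 0.239 FPKM at 2 months and 0.667, 0.638 and 0.641 at 18 months, so that only 2-month replicate 2 was above the aged libraries. Adamts5, which like Adamts4 was chosen for mention after its values were seen, had a log2 fold change of −0.49, under the fold limit, at an adjusted p of 0.036 in the same test.

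Of the other hyaluronan receptors, 2 of 5 were called higher and 1 lower, and the median was 1.52. Hmmr, a hyaluronan-binding protein that is also part of the mitotic spindle, had 0.28, 4.45 and 0.651 FPKM at 2 months and 16.5, 15.4 and 14.6 at 18 months (log2 fold change 3.09, edgeR quasi-likelihood, Benjamini-Hochberg adjusted p = 0.044). As with Cd44, 2-month replicate 2 was the highest of the young libraries. Of 7 CD44 partners 2 were called higher and 1 lower, with a median of 1.01. Ezr, which links CD44 to the actin cortex, rose from 7.66 ± 4.02 to 37.7 ± 1.23 FPKM (SD, n = 3 each, log2 fold change 2.25, edgeR quasi-likelihood, Benjamini-Hochberg adjusted p = 0.0037), and the secreted ligand Spp1, the most abundant of the list, fell by 1.03 on the log2 scale. The call of Spp1 did not hold with DESeq2, where 3 partners were called higher and 0 lower, or without 2-month replicate 2, where 4 were called higher and 0 lower.

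Of the hyaluronan-binding secreted proteins, 6 of 10 listed were tested, 2 were called lower and 0 higher, with a median of −0.45. Itih2, a heavy chain that is transferred onto hyaluronan, had 8.74, 5.73 and 7.7 FPKM at 2 months and 1.04, 0.103 and 0.101 at 18 months (log2 fold change −4.25, edgeR quasi-likelihood, Benjamini-Hochberg adjusted p = 0.019). Habp4, the most abundant of that list although known mainly as an intracellular protein, fell by 1.44 on the log2 scale.

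**Figure D5:**
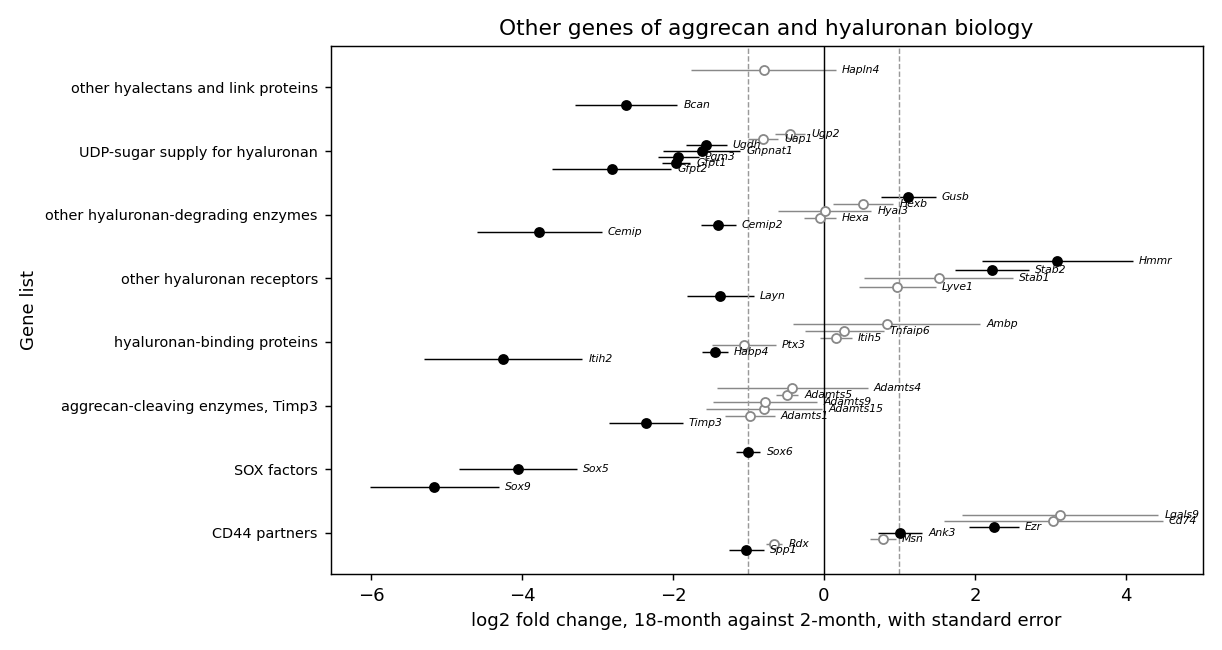
log2 fold change with its standard error for the 42 tested genes of the 8 other lists, filled where called, with dashed lines at the fold limits. The SOX factors and the UDP-sugar enzymes lie left of 0, and the receptors and CD44 partners hold all but 1 of the 5 genes called higher.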

How the data were processed

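RNA sequencing of articular cartilage from 3 libraries of 2-month-old and 3 of 18-month-old mice was used, grouped by sample title. Per the labels, poly(A) RNA was selected, second strands were marked with dUTP and adapters carried molecular identifiers. The submitters' processing notes name cutadapt 1.9, HISAT2 2.0.4, UMI-tools, StringTie 1.3.4d, DESeq2 and edgeR, while their roles and order, the genome build and the use of strand in counting are not given in the sources used here. The deposited table holds raw read counts per gene and, beside them, the FPKM that the authors computed. All columns of values were used (0 left out). Depth is given in the report.

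Counts were tested with edgeR 4.0.16 in R 4.3.3 (TMM, filterByExpr, quasi-likelihood F-test, age as the factor, Benjamini-Hochberg over 20397 genes). Standard errors were derived from the F statistic, as the size of the log2 change over its root. Fold changes are 18 months against 2 months. The code was checked on simulated counts. Alternatives used DESeq2 1.42.0, median-of-ratios size factors, total counts alone, library sizes without the 100 most abundant genes, no filter, limma 3.58.1 on log2(FPKM + 0.1), log2(FPKM + 1) and log2(TPM + 0.1) with FPKM rescaled, edgeR's glmTreat, a replicate block and each library left out. A fit without both libraries that stand apart was added after the data were seen.

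The 10 genes, the lists and the tests were chosen with earlier results of these data known, and no list was tested as a set. Named beside the 10 were, of each list, the most abundant tested gene and the called gene with the largest change, the 5 profiles nearest to Acan and to Cd44, genes whose span overlaps one of the 10, Xist and Col2a1. Genes named outside that rule are Ptprc, Sox5, Sox6, Adamts4, Adamts5 and Epyc. Replicate pairs differed by more than sampling noise, and each library was kept. Motifs were searched in Python 3.11.15.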

Additional observations from a re-analysis of the deposited data

How the results depend on the processing

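Over 17 alternatives Acan, Hapln1, Hapln3, Has2 and Hyal1 kept their direction and their call, and Vcan its direction without a call. The number of the 10 genes called was 5 with glmTreat, 6 to 8 with 1 library left out and 9 with both libraries that stand apart left out. With glmTreat, 4033 genes were called in all and 9 of the other listed genes, and Has3, Hyal2 and Cd44 lost their calls. Other listed genes called ran from 12 to 25 with 1 library left out. Has1 turned to −0.44 with limma on log2(FPKM + 0.1), −1.15 on log2(TPM + 0.1), −1.36 with the replicate block and −2.81 without both libraries that stand apart, and ran from −2.73 to 1.0 with 1 library left out. The Acan to Col2a1 difference ran from −0.27 (without 18-month replicate 1) to 0.96 with 1 library left out. With limma on log2(FPKM + 1), Has3 (−0.32) and Hyal2 (−0.83) fell under the fold limit. The cause of these shifts was not tested.

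Rescaling to TPM moved the median of all genes to −0.33. In that fit the log2 fold changes, with this shift not taken off, were 2.09 for Cd44 and −7.0 for Acan, above and below that median. Of the calls over all genes 41.2% were higher, against 50.6%, 57.8% and 34.8% with limma on log2(FPKM + 0.1), log2(FPKM + 1) and log2(TPM + 0.1), 52.2% without 2-month replicate 2 and 50.4% without both libraries that stand apart.

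With the replicate number as a block, 6032 genes were called in all, 8 of the 10 and 17 of the other listed genes. Deviations of same-numbered libraries correlated at 0.03, 0.03 and −0.03, and those of differently numbered ones at −0.04 to 0.05. No pairing by number was visible, but correlations over so few libraries cannot exclude one. With 9 to 20 counts in 18-month replicates 2 and 3, Hapln3 and Has1 rest on few reads there.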
